A study of Homo sapiens with 12 samples.

Results

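The G1 control genes read here are the 3 D-type cyclins CCND1, CCND2 and CCND3, their kinases CDK4 and CDK6, the CIP/KIP inhibitors CDKN1A (p21), CDKN1B (p27) and CDKN1C (p57), and the pocket proteins RB1 and RBL2 (p130). They were chosen by name, 10 genes of 58735 in the count table, by someone who knew earlier results of these libraries. Their values therefore describe these libraries and are no independent support for a pattern among them. All 10 genes passed the filter on low counts and were among 17468 genes tested.

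RNA was sequenced from cancer tissue made of MDA-MB-231 cells, a human triple-negative breast cancer line, which carried a green fluorescent protein and sat in fibrin gel in AngioPlate, a culture plate under flow. In the hepatic co-culture (4 libraries) the partner tissue was HepG2, a human liver tumour line, mixed with lung fibroblasts at 2%. In the cardiac co-culture (4 libraries) it was cardiomyocytes derived from induced pluripotent stem cells, mixed with cardiac fibroblasts at 2%. In the monoculture (4 libraries) the cancer tissue had no partner. All partner tissues were also in fibrin gel, and in every group RNA came from the cancer tissue 5 days after seeding. Each group rests on the same cancer line, and the sources used here do not say whether the 4 biological replicates of a group came from separate seedings, so a p-value here reflects the spread among these libraries alone.

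D-type cyclins bind CDK4 and CDK6 in early G1 and start the phosphorylation of the pocket proteins. Unphosphorylated pocket proteins hold back E2F factors: RB1 binds activating E2F proteins, and RBL2 joins the DREAM complex, which silences cell cycle genes in quiescence. CIP/KIP proteins block CDK2 complexes and also bind cyclin D complexes, while INK4 proteins bind CDK4 and CDK6 directly. MAPK signalling raises CCND1 transcription, and FOXO factors raise CDKN1B and RBL2, each known from mammalian cells. Much of the control of p27 and of cyclin D acts on the proteins, which RNA counts do not measure.

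The cardiac libraries held 26.99 to 37.4 M counts (M for 1e+06), the hepatic libraries 26.2 to 42.4 M, and the monoculture libraries 35.0 to 42.0 M. One library stood apart: cardiac replicate 4 lay at -24.9 on the first principal component (28.5% of the variance), against 6.79 to 16.3 for the other 3 cardiac libraries and -51.1 to -22.3 for the monoculture. It held 21 counts of the cardiac myosin gene MYH6, which had 0 in the other 11 libraries. Its level of every one of the 10 genes lay outside the range of the other 3 cardiac libraries, and for CCND2, CCND3, CDKN1B, CDKN1C and RBL2 it lay within the range of the monoculture. For CCND1 and CDKN1A it lay between the ranges, for CDK4 above both and for CDK6 below both. For RB1, at 62.7 CPM, it lay further from the monoculture than the other cardiac libraries did. The share of all tested genes outside the cardiac range was not counted. Cardiac results are given with and without cardiac replicate 4. Genes typical of MDA-MB-231 (10 genes, VIM and CD44 among them) summed to 5286 to 5709 CPM in cardiac co-culture, 5596 to 6424 CPM in hepatic co-culture and 5387 to 5860 CPM in monoculture, where CPM is counts per 1e+06 counts after TMM scaling. Single genes of this list differed against monoculture by edgeR. In hepatic co-culture VIM and LGALS1 rose and KRT8 and CAV1 fell. In cardiac co-culture TGFBI rose and CAV1 and AXL fell. Between the co-cultures 0 of these 10 genes passed. CDKN2A, CDKN2B and MTAP, which this line is known to have lost, had 0 counts in all 12 libraries. Markers of the partner cells that were called are given after the D cyclins, and the whole lists at the end.

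CCND3 and CCND1 were the D cyclins of this tissue, and both fell in hepatic co-culture. CCND3 (ENSG00000112576, chr6:41934933-42050357, minus strand, GRCh38) stood at 373, 368, 361 and 421 CPM in cardiac replicates 1 to 4, at 214, 232, 201 and 231 CPM in hepatic replicates 1 to 4, and at 410.3, 398, 463 and 433 CPM in monoculture replicates 1 to 4. The hepatic libraries were all below every cardiac and every monoculture library, whereas the cardiac range overlapped that of the monoculture through cardiac replicate 4. The group means were 381 ± 27.2 CPM in cardiac co-culture, 219.6 ± 14.5 CPM in hepatic co-culture and 426 ± 28.7 CPM in monoculture (SD, n = 4 each).

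RefSeq lists 3 starts for CCND3, and the region before the one shown is printed because CCND3 had the smallest adjusted p among the 10 genes. The stretches printed below and for CDKN1A and RBL2 come from the RefSeq promoter table of GRCh38.p14, which held 7 of the 10 genes. They run 5′ to 3′ on the gene's strand and cover only bases that no annotated exon holds. Capitals mark the letters GGGCGG of the GC box, the letters CCAAT of the CCAAT box or the letters of an E2F core, on either strand. The CCND3 stretch is chr6:41941849-41942058 on the minus strand.
CCND3 upstream: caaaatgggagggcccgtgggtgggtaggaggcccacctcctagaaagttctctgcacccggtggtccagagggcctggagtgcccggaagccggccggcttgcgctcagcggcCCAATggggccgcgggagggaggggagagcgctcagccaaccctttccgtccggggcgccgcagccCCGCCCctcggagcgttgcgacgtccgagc
Its full 250-base window held 2 GC boxes and 1 CCAAT box, of which the stretch shows 1 GC box and the CCAAT box. The start shown lies inside the annotated gene, and 1 annotated CCND3 transcript held the first 25 bases after it. For the start with window chr6:42048689-42048938, 12 transcripts did. That window held 5 GC boxes and is not printed, because annotated exons cover all of it. The stretch shown may therefore not be the start of most CCND3 RNA.

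Against the monoculture, CCND3 fell by 48.5% in hepatic co-culture (log2 fold change -0.96 ± 0.07 SE, edgeR quasi-likelihood test, adjusted p = 9.04e-08). Its log2 fold change was -0.16 ± 0.07 in cardiac co-culture against monoculture, with an adjusted p of 0.163. Without cardiac replicate 4 it was -0.21 ± 0.07 and passed the test, with an adjusted p of 0.0397. The cardiac co-culture was 1.73-fold above the hepatic co-culture (log2 fold change 0.79 ± 0.07, adjusted p = 1.10e-06), and no library left out changed that call.

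CCND1 (ENSG00000110092, chr11:69641087-69654474, plus strand), the D cyclin most often raised by mitogen signalling, stood at 162, 189.6, 201.5 and 253 CPM in cardiac replicates 1 to 4. It stood at 164, 156, 158 and 165 CPM in hepatic replicates 1 to 4 and at 298, 259, 326 and 307 CPM in monoculture replicates 1 to 4. Every co-culture library was below every monoculture library, with cardiac replicate 4 closest to them. CCND1 fell by 46.0% in hepatic co-culture (log2 fold change -0.89 ± 0.10, edgeR adjusted p = 1.60e-05) and by 32.2% in cardiac co-culture (log2 fold change -0.56 ± 0.10, adjusted p = 0.00728), each against monoculture. Without cardiac replicate 4 the cardiac log2 fold change was -0.69 ± 0.08.

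The spread of CCND1 was itself unequal. The SD was 18.8% of the mean in cardiac co-culture, 2.82% in hepatic co-culture and 9.59% in monoculture. Between the cardiac and the hepatic co-culture CCND1 differed by a log2 fold change of 0.33 ± 0.10 with an edgeR adjusted p of 0.0703. Without cardiac replicate 1, whose 162 CPM lay among the hepatic values, the adjusted p was 0.0117. The difference also passed by DESeq2 and with no filter on low counts.

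CCND2 (ENSG00000118971, chr12:4273772-4305350, plus strand), a D cyclin prominent in other tissues, was near the detection limit. It had 12 to 38 counts in cardiac co-culture, 3 to 29 in hepatic co-culture and 4 to 24 in monoculture. The means were 0.722 ± 0.491 CPM in cardiac co-culture, 0.417 ± 0.234 CPM in hepatic co-culture and 0.360 ± 0.185 CPM in monoculture (SD, n = 4 each), and the groups overlapped. At these counts the SE of its log2 fold change was 0.60 for the hepatic co-culture and 0.59 for the cardiac co-culture against monoculture, and no comparison passed the test.

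Some markers of other cell types were also called between the groups. CYP3A5, a drug-metabolising enzyme of the hepatocyte list, averaged 11.1 ± 2.71 CPM in hepatic co-culture and 3.44 ± 0.587 CPM in monoculture (log2 fold change 1.68 ± 0.21, edgeR adjusted p = 1.60e-05), and it was lower in cardiac than in hepatic co-culture (-1.54 ± 0.21, adjusted p = 9.56e-05). SERPINA1, the other hepatocyte gene tested, was higher in cardiac than in hepatic co-culture (0.81 ± 0.21, adjusted p = 0.0482). Of the 8 tested fibroblast genes, COL1A2 and COL3A1 rose and DCN and FBLN1 fell in hepatic co-culture against monoculture. In cardiac co-culture 0 of the 8 passed against monoculture, and DCN and FBLN1 were higher there than in hepatic co-culture. Of the 6 tested endothelial genes, VWF, TIE1 and EGFL7 rose and KDR fell in hepatic co-culture, and VWF and TIE1 rose in cardiac co-culture, each against monoculture. For the 2 tested cardiomyocyte genes no comparison passed. Their part in the values of the 10 genes was not tested.

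**Figure D1:**
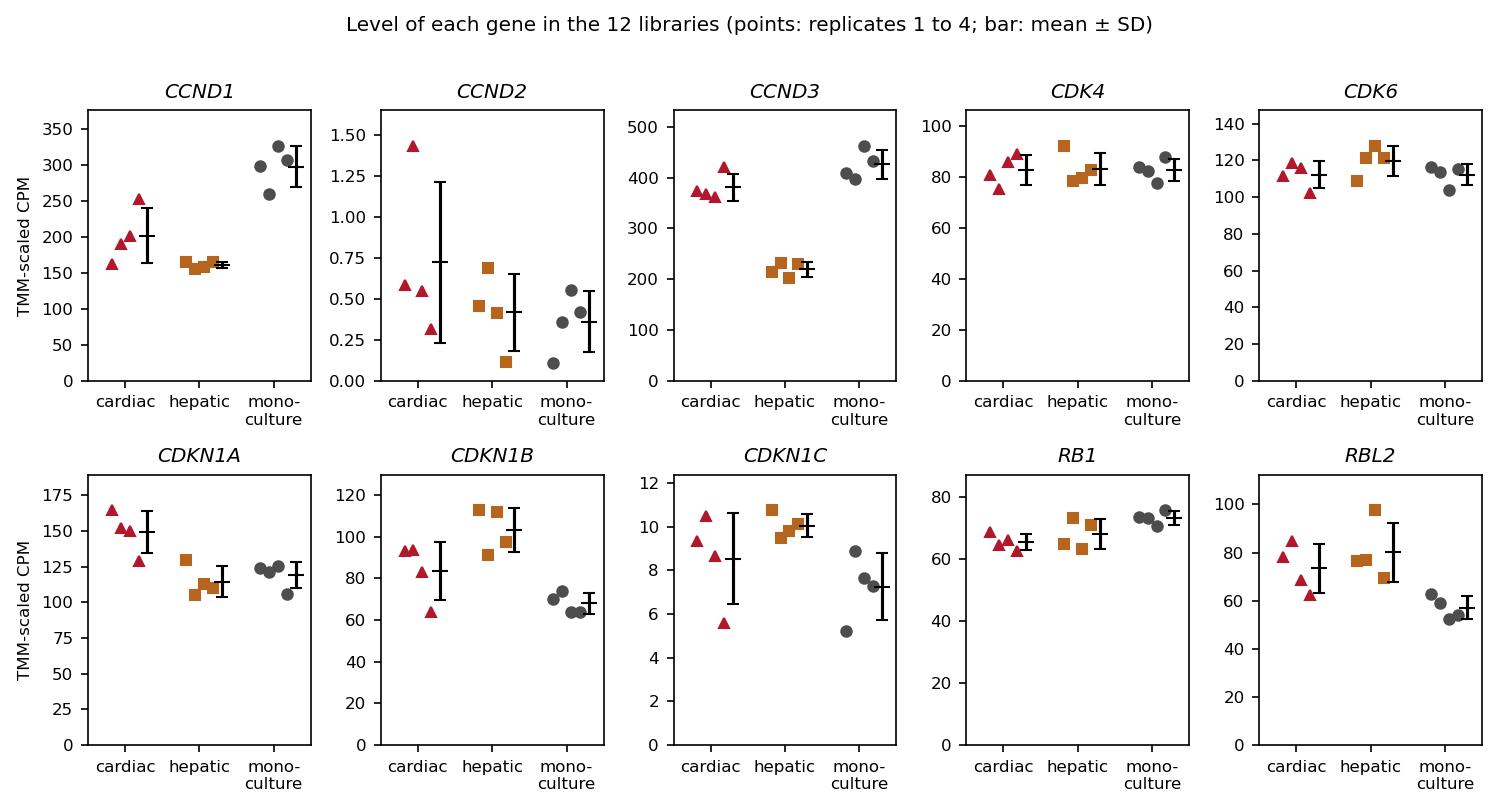
Level of each of the 10 genes in every library, as TMM-scaled CPM on the vertical axis, with cardiac co-culture (triangles), hepatic co-culture (squares) and monoculture (circles) from left to right, and bars for the mean ± SD of 4 libraries. The hepatic squares of CCND1 and CCND3 sit below all monoculture circles, those of CDKN1B and RBL2 sit above them, and the triangle at the right of each cardiac group is cardiac replicate 4.

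For the catalytic partners no difference was called. CDK4 (ENSG00000135446, chr12:57747727-57756013, minus strand) averaged 82.9 ± 5.96 CPM in cardiac co-culture, 83.3 ± 6.34 CPM in hepatic co-culture and 82.9 ± 4.33 CPM in monoculture. CDK6 (ENSG00000105810, chr7:92604921-92836594, minus strand) averaged 112 ± 7.20 CPM in cardiac co-culture, 119.9 ± 8.17 CPM in hepatic co-culture and 112 ± 5.85 CPM in monoculture. All groups overlapped for both kinases. Against the monoculture the log2 fold change of CDK4 was 0.01 ± 0.07 in hepatic co-culture (adjusted p = 0.963), and in cardiac co-culture its SE was also 0.07 (adjusted p = 0.999). That of CDK6 was 0.09 ± 0.07 in hepatic co-culture (adjusted p = 0.332), and its cardiac adjusted p was 0.994.

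Among the inhibitors, CDKN1A and CDKN1B were called in different comparisons. CDKN1A (ENSG00000124762, chr6:36676460-36687339, plus strand), which encodes p21, stood at 165, 152, 149.9 and 129 CPM in cardiac replicates 1 to 4, and at 129.8, 105, 113 and 109.7 CPM in hepatic replicates 1 to 4. In monoculture replicates 1 to 4 it stood at 124, 121, 125.7 and 105.8 CPM. All cardiac libraries were above the monoculture, and cardiac replicate 4, the lowest of them, was just below hepatic replicate 1. The cardiac log2 fold change was 0.32 ± 0.08 against monoculture (24.9% higher, edgeR adjusted p = 0.0261) and 0.38 ± 0.08 against the hepatic co-culture (30.2% higher, adjusted p = 0.00878). In hepatic co-culture it was -0.06 ± 0.08 against monoculture, with an adjusted p of 0.636.

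The cardiac call of CDKN1A against monoculture did not hold for every set of libraries. Its adjusted p was between 0.0506 and 0.0897 without monoculture replicate 1, 3 or 4 or without cardiac replicate 1, 2 or 3, and 0.00240 without cardiac replicate 4. Its start region is printed because CDKN1A was the inhibitor that rose in cardiac co-culture. The stretch is chr6:36678560-36678657 on the plus strand.
CDKN1A upstream: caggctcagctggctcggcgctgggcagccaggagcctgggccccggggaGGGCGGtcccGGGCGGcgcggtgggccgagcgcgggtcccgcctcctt
Its 250-base window held 4 GC boxes and no CCAAT box or E2F core.

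CDKN1B (ENSG00000111276, chr12:12715058-12722371, plus strand), which encodes p27, rose in hepatic co-culture. It stood at 92.9, 93.8, 82.9 and 64.1 CPM in cardiac replicates 1 to 4, at 113, 91.4, 112 and 97.6 CPM in hepatic replicates 1 to 4, and at 70.3, 74.0, 63.8 and 64.1 CPM in monoculture replicates 1 to 4. All hepatic libraries were above the monoculture, as were cardiac replicates 1 to 3, while cardiac replicate 4 was inside it. The hepatic log2 fold change against monoculture was 0.60 ± 0.11 (51.9% higher, edgeR adjusted p = 5.36e-04). The cardiac one was 0.29 ± 0.11 with an adjusted p of 0.0904, and 0.40 ± 0.08 with an adjusted p of 0.00272 without cardiac replicate 4. The cardiac co-culture was not called different from the hepatic co-culture (log2 fold change -0.31 ± 0.11, adjusted p = 0.0911).

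CDKN1C (ENSG00000129757, chr11:2883213-2885773, minus strand), an imprinted gene that encodes p57, was the least abundant inhibitor. It averaged 8.53 ± 2.09 CPM in cardiac co-culture, 10.05 ± 0.544 CPM in hepatic co-culture and 7.26 ± 1.53 CPM in monoculture. The hepatic libraries, at 9.50 to 10.8 CPM, were all above the monoculture libraries, at 5.20 to 8.88 CPM. The log2 fold change was 0.47 ± 0.18 with an edgeR adjusted p of 0.0583, just outside the threshold of 0.05. It was inside without monoculture replicate 2 (adjusted p = 0.0339) and without cardiac replicate 4 (adjusted p = 0.0219). It was also inside with upper-quartile scaling (adjusted p = 0.0465), by DESeq2 (0.0427), with no filter on low counts (0.0251) and in a fit of the 2 groups compared (0.0296), while the other leave-one-out fits gave 0.0554 to 0.190.

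None of the INK4 inhibitors measured in this line was called. CDKN2C (p18) averaged 43.1 ± 7.52 CPM in cardiac co-culture, 41.6 ± 1.47 CPM in hepatic co-culture and 48.5 ± 4.59 CPM in monoculture. CDKN2D (p19) averaged 32.7 ± 3.01 CPM in cardiac co-culture, 35.5 ± 3.17 CPM in hepatic co-culture and 33.5 ± 1.32 CPM in monoculture. By edgeR 0 of these 2 genes passed in any comparison. At an unadjusted p under 0.05 CDKN2C was lower in hepatic co-culture than in monoculture, by a log2 fold change of -0.22 ± 0.10, and DESeq2 called neither. For CDKN2A and CDKN2B, 0 counts allow at most 0.0790 to 0.113 CPM in a cardiac library, 0.0709 to 0.115 CPM in a hepatic library and 0.0692 to 0.0833 CPM in a monoculture library, counting error only.

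Of the pocket proteins, RBL2 (ENSG00000103479, chr16:53433977-53491649, plus strand) rose in both co-cultures. It stood at 78.1, 84.9, 68.6 and 62.2 CPM in cardiac replicates 1 to 4, at 76.5, 77.1, 97.7 and 69.2 CPM in hepatic replicates 1 to 4, and at 62.8, 59.1, 52.3 and 54.1 CPM in monoculture replicates 1 to 4. The hepatic libraries were all above the monoculture, and of the cardiac libraries replicate 4 alone lay inside the monoculture range. Against the monoculture the log2 fold change was 0.49 ± 0.11 in hepatic co-culture (40.4% higher, edgeR adjusted p = 0.00286) and 0.36 ± 0.11 in cardiac co-culture (28.6% higher, adjusted p = 0.0461).

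The cardiac call of RBL2 was close to the threshold. Its adjusted p was between 0.0534 and 0.159 without any one of monoculture replicates 1 to 4, hepatic replicates 1 and 2 or cardiac replicates 1 to 3, and 0.00697 without cardiac replicate 4. A start region is printed because RBL2 was the one gene of the 10 that rose in both co-cultures. The stretch is chr16:53434277-53434419 on the plus strand, before the first of 2 starts RefSeq lists.
RBL2 upstream: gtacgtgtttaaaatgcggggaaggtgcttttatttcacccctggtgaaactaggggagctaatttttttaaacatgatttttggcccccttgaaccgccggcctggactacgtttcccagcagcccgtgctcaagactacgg
No GC box, CCAAT box or E2F core was found in the 250-base window of this first start. The window of the second start, chr16:53435369-53435618, held 1 CCAAT box and no GC box or E2F core.

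RB1 (ENSG00000139687, chr13:48303726-48599436, plus strand) averaged 65.6 ± 2.60 CPM in cardiac co-culture, 68.0 ± 4.79 CPM in hepatic co-culture and 73.3 ± 2.16 CPM in monoculture. The cardiac libraries, at 62.7 to 68.8 CPM, were all below the monoculture libraries, at 70.6 to 75.9 CPM. The log2 fold change was -0.16 ± 0.07 in cardiac co-culture (edgeR adjusted p = 0.133) and -0.11 ± 0.07 in hepatic co-culture (adjusted p = 0.247), each against monoculture.

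Motifs were searched on both strands of 35116 promoter windows of 250 bases. The GC box letters GGGCGG were found in 42.6% of them and the CCAAT box in 32.0%. An E2F core was found in 10.9%, in any of its forms TTCGCGC or else TTGGCGC, or likewise TTCCCGC, or lastly TTGCCGC. The FOXO core with letters GTAAACA was found in 3.0%, the E-box with letters CACGTG in 6.3%, the TATA box with letters TATAAA in 10.7%, and the CHR core with letters TTTGAA in 13.3%. GC box and E2F core letters can share bases, and each motif was counted on its own. Across the 11 windows of the 7 genes, the E-box was found in that of CDK4 alone, with 3 matches, and no window held the E2F core, the FOXO core, the TATA box or the CHR core. The only RB1 window, chr13:48476200-48476449, lay inside the gene, which starts at 48303726. The region before the annotated start of RB1 was therefore not searched. A match is letters in a window and shows no binding.

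Read as counts, 4 of the 10 genes were called in hepatic co-culture against monoculture (CDKN1B and RBL2 higher, CCND1 and CCND3 lower), while 28.0% of all tested genes were called there. Higher calls made up 14.4% and lower calls 13.6% of all genes. The libraries of the groups did not overlap for 5 of the 10 genes and for 30.5% of all genes. Among cardiac libraries against monoculture 3 of 10 were called (CDKN1A and RBL2 higher, CCND1 lower), beside 8.26% of all genes (4.93% higher, 3.33% lower). Groups did not overlap for 3 of 10 genes and 15.2% of all genes there. Without cardiac replicate 4, 5 of 10 and 19.1% of all genes were called. In the cardiac against the hepatic co-culture 2 of 10 were called (CCND3 and CDKN1A, both higher), beside 6.18% of all genes (3.27% higher, 2.91% lower), and groups did not overlap for 1 of 10, beside 11.9%. The median log2 fold change of the 10 genes was 0.05, 0.11 and -0.03 in these comparisons in turn, and that of all tested genes was 0.01, 0.01 and -0.00.

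Since the 10 genes were chosen with results known, nothing is read from these shares. Both comparisons against monoculture use the same 4 monoculture libraries, so their values for a gene are not independent of each other. In bulk RNA, fewer cells of a type and less RNA per cell cannot be told apart.

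**Figure D2:**
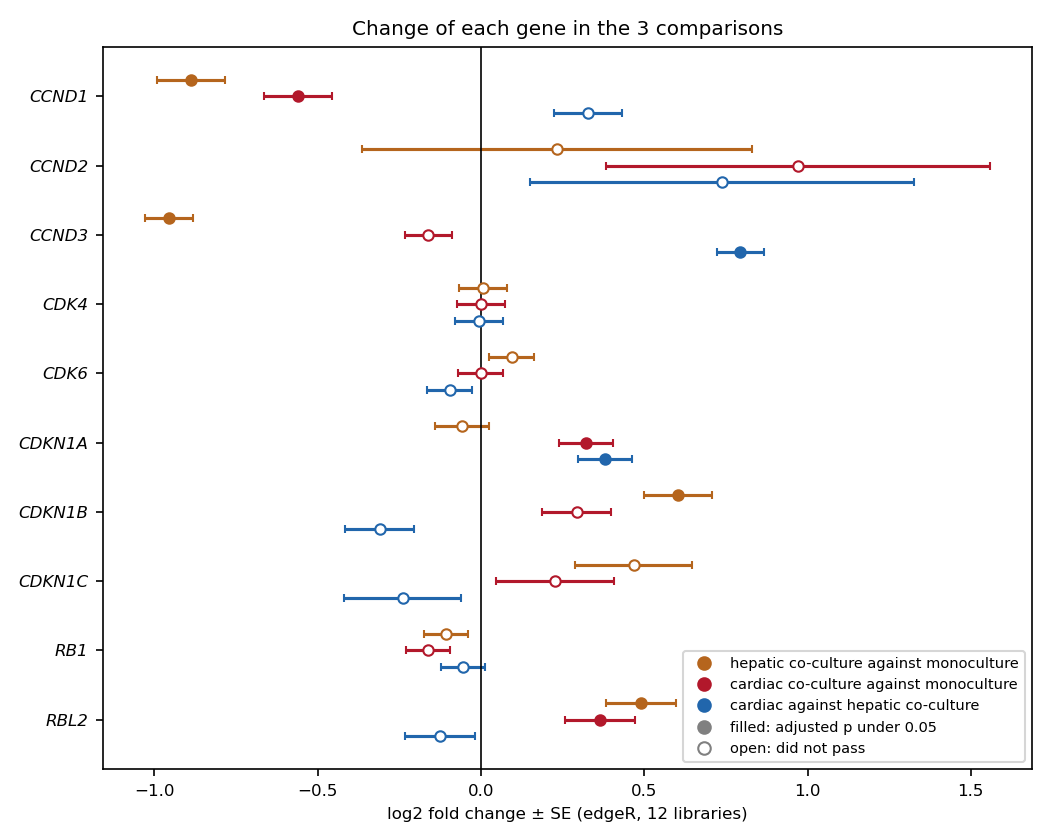
Log2 fold change of each gene on the horizontal axis, with bars of 1 SE from the edgeR fit over 12 libraries, for hepatic co-culture against monoculture, cardiac co-culture against monoculture, and cardiac against hepatic co-culture. Filled points passed the adjusted p threshold of 0.05: CCND3 is at -0.96 in the first, at -0.16 and open in the second and at 0.79 in the last, whereas CDK4 is beside zero in all of them.

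Levels per kb of exon sequence allow the 10 genes to be set against each other. In hepatic co-culture the order was CCND3 at 37.8 ± 2.50, CDKN1A at 37.5 ± 3.52, CDKN1B at 36.8 ± 3.77 and CCND1 at 33.3 ± 0.939 CPM per kb, each neighbouring pair differing by less than the larger of its SDs. CDK4 followed at 26.3 ± 2.00 CPM per kb, then RBL2 at 10.9 ± 1.67, RB1 at 10.5 ± 0.743 and CDK6 at 9.78 ± 0.666, which overlap. CDKN1C, at 4.05 ± 0.219, and CCND2, at 0.0583 ± 0.0328 CPM per kb, came last.

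In cardiac co-culture CCND3 led at 65.6 ± 4.69 CPM per kb, clear of CDKN1A at 48.8 ± 4.82 and CCND1 at 41.7 ± 7.84, which differ by less than the larger SD. CDKN1B at 29.7 ± 4.91 and CDK4 at 26.2 ± 1.88 CPM per kb followed, also within an SD of each other. In monoculture both D cyclins stood above everything else, CCND3 at 73.4 ± 4.94 and CCND1 at 61.6 ± 5.90 CPM per kb. CDKN1A followed at 39.1 ± 3.00, then CDK4 at 26.2 ± 1.37 and CDKN1B at 24.2 ± 1.77 CPM per kb, which differ by slightly more than the larger SD. The 2 pocket proteins stood at 10.2 ± 0.403 (RB1) and 10.03 ± 1.38 (RBL2) CPM per kb in cardiac co-culture and at 11.4 ± 0.335 (RB1) and 7.80 ± 0.652 (RBL2) CPM per kb in monoculture. Exon lengths are those of all annotated exons together, so transcripts that use fewer exons are understated.

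Summed over the family, D cyclin RNA came to 107 ± 11.9 CPM per kb in cardiac co-culture, 71.2 ± 2.72 in hepatic co-culture and 135 ± 10.6 in monoculture. CIP/KIP RNA came to 81.9 ± 10.3 CPM per kb in cardiac co-culture, 78.4 ± 7.08 in hepatic co-culture and 66.2 ± 4.02 in monoculture. The hepatic co-culture was thus the group in which the summed inhibitors were not below the summed D cyclins on average. CDK4 and CDK6 together came to 35.3 ± 1.499 CPM per kb in cardiac co-culture, 36.1 ± 1.41 in hepatic co-culture and 35.3 ± 1.80 in monoculture.

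**Figure D3:**
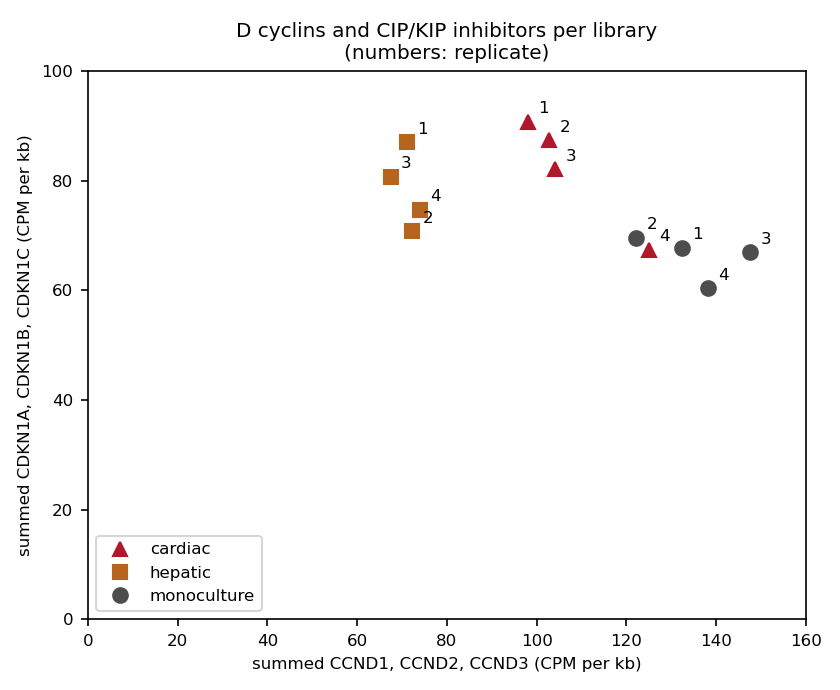
Each library as a point, with summed CCND1, CCND2 and CCND3 on the horizontal axis and summed CDKN1A, CDKN1B and CDKN1C on the vertical axis, both in CPM per kb, and the replicate number beside it. The hepatic squares lie left, between 67.5 and 73.9 on the horizontal axis. On that axis alone cardiac replicates 1 to 3 lie between them and the monoculture. On the vertical axis the cardiac triangles span 67.4 to 90.8, the hepatic squares 70.9 to 87.1 and the monoculture circles 60.4 to 69.6. Cardiac replicate 4, the lowest triangle, lies among the monoculture circles.

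Composition within the families also differed. CCND3 made up 61.3 ± 3.23% of D cyclin RNA in cardiac co-culture, 53.1 ± 1.75% in hepatic co-culture and 54.4 ± 1.19% in monoculture, and the cardiac libraries (58.1 to 65.6%) did not overlap with the others. CDKN1B made up 36.1 ± 1.79% of CIP/KIP RNA in cardiac co-culture, 46.9 ± 1.57% in hepatic co-culture and 36.6 ± 1.86% in monoculture, and there the hepatic libraries (45.9 to 49.3%) stood apart. RBL2 made up 49.5 ± 3.13% of RB1 and RBL2 together in cardiac co-culture, 50.8 ± 4.99% in hepatic co-culture and 40.6 ± 1.97% in monoculture. CDK4 made up 74.0 ± 2.46% of CDK4 and CDK6 together in cardiac co-culture, 72.8 ± 2.71% in hepatic co-culture and 74.1 ± 0.489% in monoculture.

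Downstream of the pocket proteins, genes of the E2F and DREAM machinery that passed the test in hepatic co-culture were lower there, apart from E2F7. Of 17 E2F, DREAM and MuvB genes, 8 fell and 1 rose against monoculture by edgeR (median log2 fold change -0.29). RBL1 (p107), the remaining pocket protein, averaged 28.4 ± 0.342 CPM in hepatic co-culture and 44.2 ± 4.15 CPM in monoculture (log2 fold change -0.64 ± 0.10, adjusted p = 1.66e-04). LIN54, the DNA-binding subunit of MuvB, fell too (log2 fold change -0.52 ± 0.10, adjusted p = 0.00112). E2F7, a repressor among the E2F factors, went the other way and rose to 86.8 ± 7.32 CPM in hepatic co-culture, against 55.0 ± 2.08 CPM in monoculture (log2 fold change 0.66 ± 0.07, adjusted p = 4.92e-06). In cardiac co-culture 2 of the 17 fell against monoculture, E2F3 (log2 fold change -0.26 ± 0.07) and the E2F partner TFDP1 (-0.33 ± 0.09). E2F7 was lower in the cardiac than in hepatic co-culture, by a log2 fold change of -0.70 ± 0.07 (adjusted p = 4.98e-06), the one call of the list there.

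Of 15 E2F targets of DNA synthesis, 5 fell and 0 rose by edgeR in hepatic co-culture (median log2 fold change -0.51), where DESeq2 called 11 lower and 12 were lower at an unadjusted p under 0.05. CDC6, which loads the replicative helicase, averaged 28.3 ± 7.55 CPM in hepatic co-culture and 51.5 ± 2.67 CPM in monoculture (log2 fold change -0.86 ± 0.24, adjusted p = 0.0245). RRM2, a subunit of ribonucleotide reductase, had a log2 fold change of -1.01 ± 0.30 (adjusted p = 0.0301), and MCM3, a subunit of the helicase, one of -0.54 ± 0.17 (adjusted p = 0.0334). For cardiac co-culture 0 of 15 passed edgeR against monoculture, though all 15 had a negative log2 fold change (median -0.39), 5 were lower at an unadjusted p under 0.05 and DESeq2 called 1. MCM6, a subunit of the helicase, had the smallest adjusted p there (0.127, log2 fold change -0.48 ± 0.18).

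These counts moved when the library that stood apart was left out. Without cardiac replicate 4, 14 of 15 fell in hepatic co-culture and 14 of 15 in cardiac co-culture, each against monoculture, with cardiac median -0.66. The hepatic median was -0.51 with and without that library, as no hepatic or monoculture library was left out. The groups share an estimate of the spread in the fit, so hepatic calls can change with a cardiac library. Of all tested genes, 31.2% were called in hepatic and 19.1% in cardiac co-culture without cardiac replicate 4. Of the 17 E2F, DREAM and MuvB genes, 10 then fell and 1 rose in hepatic co-culture and 7 fell in cardiac co-culture.

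Of 10 mitosis genes, 0 passed edgeR in any comparison. All 10 had negative log2 fold changes against monoculture, with a median of -0.38 in hepatic and of -0.43 in cardiac co-culture, where 3 and 0 were lower at an unadjusted p under 0.05 and DESeq2 called 1 and 0. FOXM1, a transcription factor of G2 and mitosis, averaged 57.0 ± 10.9 CPM in hepatic co-culture and 95.6 ± 11.8 CPM in monoculture (adjusted p = 0.0838). PLK1, a mitotic kinase, averaged 47.9 ± 19.3 CPM in cardiac co-culture and 69.0 ± 4.26 CPM in monoculture (adjusted p = 0.214). Without cardiac replicate 4, 4 of 10 fell in the hepatic and 8 of 10 in cardiac co-culture. Between the cardiac and the hepatic co-culture, 0 of the 15 DNA synthesis targets and 0 of the 10 mitosis genes passed edgeR or DESeq2 or had an unadjusted p under 0.05.

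Among 9 genes of cyclin E, cyclin A, CDK2 and the CDK-activating kinase, 2 fell and 0 rose in hepatic co-culture against monoculture (median log2 fold change -0.10). CDC25A, the phosphatase that activates CDK2, averaged 12.9 ± 3.43 CPM in hepatic co-culture and 24.8 ± 2.88 CPM in monoculture (log2 fold change -0.94 ± 0.24, adjusted p = 0.0120). The cyclin gene CCNE2 had a log2 fold change of -0.84 ± 0.24 (adjusted p = 0.0149). Of the same 9 genes, 0 passed edgeR in cardiac co-culture (4 lower at an unadjusted p under 0.05, 2 by DESeq2), CCNA2 having the smallest adjusted p (0.129), and 3 fell in each co-culture without cardiac replicate 4. MNAT1, the assembly factor of the CDK-activating kinase, was the one call of the cardiac against the hepatic co-culture, where it fell (log2 fold change -0.32 ± 0.09, adjusted p = 0.0382), a call lost without cardiac replicate 4.

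Further lists held FOXO and quiescence genes, genes of MAPK pathway output and genes of protein turnover. Of 9 FOXO and quiescence genes, 5 rose and 0 fell in hepatic co-culture (median log2 fold change 0.33), and 2 rose and 0 fell in cardiac co-culture (median 0.24), each against monoculture. FOXO4 rose in both, to 14.4 ± 0.930 CPM in cardiac and 14.6 ± 0.827 CPM in hepatic co-culture, against 10.9 ± 0.401 CPM in monoculture (adjusted p = 0.0242 for cardiac and 0.00463 for hepatic). FOXO1 rose in hepatic co-culture (log2 fold change 0.46 ± 0.12), as did CCNG1, the gene of cyclin G1 (0.43 ± 0.07). BCL6, a transcriptional repressor, rose in cardiac co-culture (0.61 ± 0.16, adjusted p = 0.0379). CCNG1 was lower in the cardiac than in hepatic co-culture (log2 fold change -0.30 ± 0.07, adjusted p = 0.0133). Without cardiac replicate 4, 6 of the 9 rose in the hepatic and 4 in cardiac co-culture.

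Of 10 genes of MAPK pathway output other than CCND1, 6 rose and 1 fell in hepatic co-culture (median log2 fold change 0.40), where CCND1 itself fell. PHLDA1 averaged 696 ± 49.5 CPM in hepatic co-culture and 382 ± 13.6 CPM in monoculture (log2 fold change 0.86 ± 0.08, adjusted p = 1.15e-06). The ETS factor ETV4 (log2 fold change 0.59 ± 0.07) and the ERK phosphatase DUSP6 (0.60 ± 0.10) rose as well. Cardiac co-culture had 2 of 10 risen, ETV4 (0.25 ± 0.07, adjusted p = 0.0310) and DUSP6 (0.35 ± 0.10, adjusted p = 0.0416), and without cardiac replicate 4, 5 rose and 1 fell. PHLDA1 (-0.64 ± 0.08) and ETV4 (-0.34 ± 0.07) were lower in the cardiac than in hepatic co-culture, the 2 calls of the list there.

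Genes that act in turnover of the proteins were called about as often as all tested genes in hepatic co-culture (4 of 15, beside 28.0%). Of 8 turnover genes of p27 and p21, 2 fell and 0 rose in hepatic co-culture: CUL1, the scaffold of the SCF ligase (86.0 ± 6.31 CPM, against 109 ± 2.79 CPM in monoculture, adjusted p = 6.79e-04), and DTL, a receptor of the CUL4 ligase (log2 fold change -0.75 ± 0.25, adjusted p = 0.0464). In cardiac co-culture 0 of 8 passed edgeR or DESeq2, 3 were lower at an unadjusted p under 0.05, and 3 fell without cardiac replicate 4. Of 7 turnover genes of D cyclins, CUL4B rose (0.24 ± 0.06, adjusted p = 0.00985) and DDB1 fell (-0.18 ± 0.06, adjusted p = 0.0352) in hepatic co-culture, both parts of the CUL4 ligase that AMBRA1 directs to D cyclins. In cardiac co-culture 0 of 7 passed by edgeR, by DESeq2 or at an unadjusted p under 0.05. CUL4B was lower in the cardiac than in hepatic co-culture (-0.22 ± 0.07, adjusted p = 0.0463), a call lost without cardiac replicate 4.

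Of 7 imprinted neighbours of CDKN1C 5 were tested, and IGF2 and H19 had too few counts. SLC22A18, a membrane transporter gene, rose to 25.2 ± 2.11 CPM in cardiac and 31.4 ± 2.99 CPM in hepatic co-culture, against 19.7 ± 0.659 CPM in monoculture (adjusted p = 0.0272 for cardiac and 4.87e-05 for hepatic). It was lower in the cardiac than in the hepatic co-culture (log2 fold change -0.32 ± 0.09, adjusted p = 0.0447), and without cardiac replicate 4 that call was lost. PHLDA2 fell in both, by log2 fold changes of -0.51 ± 0.09 in the hepatic and -0.45 ± 0.09 in cardiac co-culture. Of 12 other cyclins and CDKs, 3 rose and 2 fell in hepatic co-culture, among them CCNL1 (0.49 ± 0.09) and CCNI (0.55 ± 0.15) upward and the transcriptional kinase CDK12 (-0.35 ± 0.06) downward. In cardiac co-culture 1 of these 12 rose, CCNL2 (0.34 ± 0.10, adjusted p = 0.0431), and 3 rose without cardiac replicate 4. CDK12 was higher in the cardiac than in hepatic co-culture (0.26 ± 0.06, adjusted p = 0.0150).

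**Figure D4:**
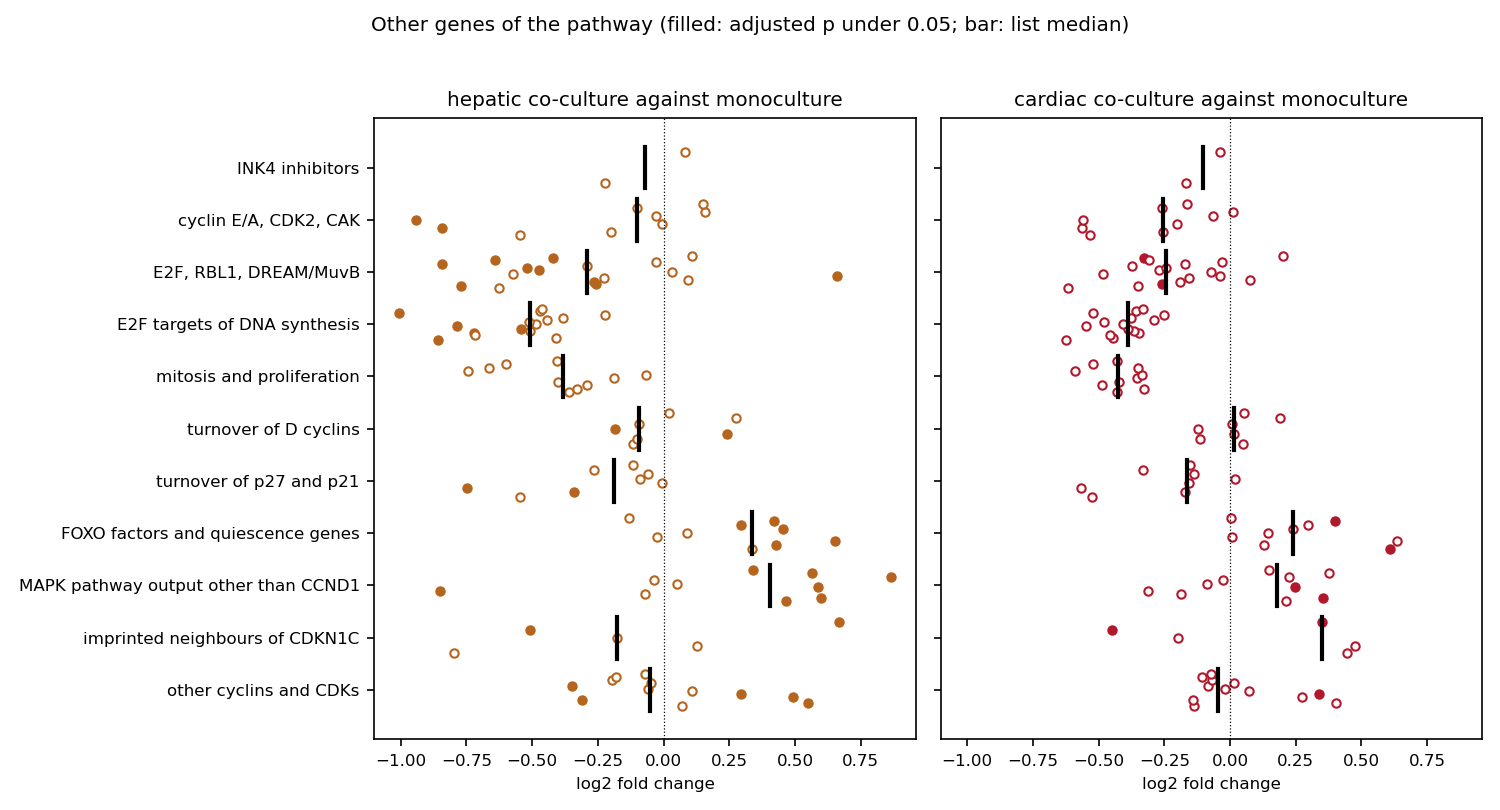
Log2 fold change against monoculture of every tested gene of the 11 lists, hepatic co-culture on the left and cardiac co-culture on the right, with a black bar at each list's median and filled points for genes past the adjusted p threshold of 0.05 by edgeR. The DNA synthesis points lie below zero in both, with medians of -0.51 and -0.39, and 5 of them are filled for the hepatic co-culture.

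Genes whose level followed that of a D cyclin most closely over the 12 libraries were sought among 11615 protein-coding genes, by the root mean square difference of log2 CPM centred on each gene's own mean. For CCND3 they were TBC1D2B (0.0951), LDLRAD3 (0.105) and SLC43A3 (0.108), where the RMS spread of CCND3 itself was 0.426. TBC1D2B averaged 128 ± 6.81 CPM in cardiac co-culture, 68.5 ± 5.35 CPM in hepatic co-culture and 134 ± 11.3 CPM in monoculture. For CCND1 (RMS spread 0.396) they were JADE2 and NOL6 (both 0.104) and AMOTL2 (0.108). The closest genes to CDKN1B (spread 0.291) were VIM (0.0661), LGALS3 (0.0709) and SAV1 (0.0719). Those to RBL2 (spread 0.257) were C20orf194 (0.0910), EIF4B (0.0922) and SMIM19 (0.102). These are descriptions over libraries that share their groups and depth.

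Reads of overlapping genes could enter some of these values, since the strand setting of the counting is not given in the sources used here. LTO1 shares 497 exon bases with CCND1 on the opposite strand and averaged 23.3 ± 2.90 CPM in cardiac co-culture, 22.6 ± 1.63 CPM in hepatic co-culture and 24.1 ± 1.502 CPM in monoculture. TSPAN31 shares 1369 exon bases with CDK4 on the opposite strand and averaged 30.7 ± 3.12 CPM in cardiac co-culture, 31.4 ± 4.86 CPM in hepatic co-culture and 26.2 ± 2.62 CPM in monoculture. AKTIP shares 610 exon bases with RBL2 on the opposite strand and averaged 19.6 ± 1.55 CPM in cardiac co-culture, 23.0 ± 1.48 CPM in hepatic co-culture and 20.0 ± 1.67 CPM in monoculture. None of these 3 passed in any comparison. Within introns, AC008115.3, inside CDKN1B, rose in hepatic co-culture (1.84 ± 0.389 CPM, against 0.996 ± 0.288 CPM in monoculture, edgeR adjusted p = 0.0334), and RCBTB2, inside the RB1 locus, fell there (log2 fold change -0.64 ± 0.19, adjusted p = 0.0156). MARCH9 lies across CDK4 without shared exon bases, at 28.97 ± 3.41 CPM in hepatic co-culture and 24.4 ± 3.13 CPM in monoculture, and the other overlapping genes with at least 10 counts in a library (AC002454.1 at CDK6, PCNPP5, LPAR6 and AL157813.1 at RB1, AC007342.7 at RBL2) averaged under 1 CPM. AC008012.1 shares 989 exon bases with CCND2 on the same strand and was at 0 in all libraries.

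Markers of partner and other cells were low. The 17 hepatocyte genes summed to 75.4 to 99.4 CPM in cardiac co-culture, 43.0 to 69.6 CPM in hepatic co-culture and 46.6 to 78.0 CPM in monoculture, nearly all from SERPINA1 and CYP3A5, the 2 that were tested. ALB had 0 to 14 counts per library, and APOA2 and RBP4 had 0 in all. The 18 cardiomyocyte genes (2 tested) summed to 1.91 to 5.29 CPM in cardiac co-culture, 1.59 to 2.83 CPM in hepatic co-culture and 2.64 to 3.67 CPM in monoculture. The 15 fibroblast genes (8 tested) summed to 46.6 to 60.5 CPM in cardiac co-culture, 31.3 to 56.7 CPM in hepatic co-culture and 43.7 to 50.9 CPM in monoculture. POSTN, THY1 and DPT were at 0 in all 12 libraries. The 8 endothelial genes (6 tested) summed to 42.0 to 47.3 CPM in cardiac co-culture, 53.6 to 60.4 CPM in hepatic co-culture and 36.1 to 45.6 CPM in monoculture, with ERG at 0 in all and CDH5 at 0 to 5 counts.

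In counts, CYP3A5 had 77 to 168 in cardiac, 203 to 478 in hepatic and 105 to 153 in monoculture libraries. FBLN1 had 82 to 226 counts in cardiac, 19 to 42 in hepatic and 197 to 321 in monoculture libraries, with cardiac replicate 4 at 226. COL1A2, which went the other way, had 37 to 84 counts in cardiac, 53 to 276 in hepatic and 25 to 77 in monoculture libraries. TIE1 had 47 to 65 counts in cardiac, 79 to 116 in hepatic and 3 to 19 in monoculture libraries. KDR, also endothelial, had 47 to 112 counts in cardiac, 28 to 68 in hepatic and 80 to 174 in monoculture libraries. The part of depth in the values of the 10 genes was not tested, and results without cardiac replicate 4 are given above.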

How the data were processed

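The authors deposited unnormalized read counts for 58735 Ensembl genes in 12 libraries of poly(A)-selected RNA. HISAT2 2.2.1 and featureCounts 2.0.6 are named in the submitters' processing notes, with DESeq2 1.42.0 and the build GRCh38. The sources used here give no annotation release, strand setting or handling of reads with several matches, and the labels' protocols describe both a stranded and a non-stranded kit. Symbols, positions and exon lengths come from GENCODE 29, which held all 58735 IDs.

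Genes were tested in R 4.3.3 with edgeR 4.0.16 (robust quasi-likelihood, TMM scaling, filterByExpr with a minimum count of 10) in 1 fit of 12 libraries by group (two-sided), with Benjamini-Hochberg adjustment over 17468 genes, threshold 0.05. These genes held 99.9% of the counts, with a biological coefficient of variation of 14.9% in common. The script was tested on simulated data before use, with 66 or 67 genes changed at each fold in a comparison. It recovered 43.3% to 62.7% of 1.5-fold changes, 62.7% to 71.6% of 2-fold changes and 80.3% to 90.9% of 4-fold changes. These rates hold for that setting, and a gene that was not called may still differ. Levels are TMM-scaled CPM, divided by exon length in kb where genes are compared.

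The genes and the 11 lists (108 genes) were chosen with earlier results of these data known. A further gene list is not reported here. Named genes of a list are the called ones with the smallest adjusted p, at most 3 per comparison, or the one with the smallest adjusted p where none was called. Genes of like pattern were sought for the 4 members with the smallest adjusted p, among protein-coding genes of mean logCPM above 1. Alternatives were 2 other scalings, DESeq2 1.42.0, no filter, a replicate block, fits of only the groups compared, glmTreat at a fold of 1.2 and each library left out. List counts without cardiac replicate 4 were added after seeing the data. Limits for counts of 0 assume 3 counts. Figures used matplotlib 3.10.9.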

Additional observations from a re-analysis of the deposited data

Results flagged for a closer look

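For 2 of the 10 genes the co-cultures differed from each other by a test of the difference itself, the cardiac against hepatic contrast of the edgeR fit. CCND3 was higher in cardiac than in hepatic co-culture by 0.79 on the log2 scale (adjusted p = 1.10e-06), with every cardiac library above every hepatic library. CDKN1A was higher in cardiac than in hepatic co-culture by 0.38 on the log2 scale (adjusted p = 0.00878), where cardiac replicate 4, at 129 CPM, lay below hepatic replicate 1, at 129.8 CPM. No library of the 30 groups of 4 values (10 genes in 3 conditions) was marked as an outlier by Dixon's test. That test divides the gap to the nearest value by the range, for each gene alone. With 4 values it marks only very wide gaps: CCND3 in cardiac replicate 4 had a gap of 0.80 of the range and was not marked. The test therefore cannot decide whether cardiac replicate 4 is an outlier, and that library stood apart on the first principal component.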

How the results depend on the processing

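No called value changed direction. Of 570 values of a gene under an alternative, 537 kept their side of the threshold, 20 lost it and 13 gained it. All 180 levels moved by less than an SD. For levels with a library left out this was fixed by arithmetic, so it says nothing about their stability.

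In hepatic co-culture against monoculture 1572 genes were called with glmTreat (4892 with edgeR as reported), and 3660 to 5529 with a library left out. Of the 10 genes (4 as reported) glmTreat called 3, without RBL2 (adjusted p = 0.0627), and every other alternative 4 or 5, CDKN1C being the one added. In cardiac co-culture against monoculture (1443 as reported) DESeq2 called 2406, no filter gave 2219 and glmTreat 46. Leaving out a library gave 263 to 3378 there, and all libraries of the 2 groups other than monoculture replicate 2 moved the count by over 1.5 times. Of the 10 genes (3 as reported), glmTreat called 0 and leave-one-out fits 1 to 5. In the cardiac against the hepatic co-culture (1080 genes, 2 of the 10) glmTreat called 272 genes and 1 of the 10, no filter called 4 of the 10 (CCND1 and CDKN1B added), and leave-one-out fits called 676 to 1269 genes, the lowest without hepatic replicate 3. Causes were not tested.

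Libraries of the same replicate number did not vary together (12 pairs, r of -0.08 to 0.11, and 3 of 12 libraries correlated best with their own number). The library names carry other numbers, by which some cardiac libraries would pair differently. By name, cardiac replicate 2 would pair with monoculture replicate 1 (r = -0.04) and with hepatic replicate 1 (r = 0.09). No fit used the pairing by name. With a replicate block 4660, 1310 and 891 genes were called in hepatic co-culture against monoculture, in cardiac co-culture against monoculture and in cardiac against hepatic co-culture, and of the 10 genes 4, 3 and 2, as without it.

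Depth limits CCND2, with 3 to 38 counts a library. The calls of CDKN1A and RBL2 in cardiac co-culture rest on margins that a library left out can end.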
